A study of Homo sapiens with 2 samples.

Results

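The genes described here are the insulin-like growth factor binding proteins IGFBP1 to IGFBP7 and the receptors IGF1R and IGF2R. They were taken as every probe set annotated to exactly 1 of these 9 genes, which gave 24 of the 54675 probe sets on the array. The 2 arrays hold RNA from PC-3 cells, a human prostate cancer line established from a bone metastasis that grows without androgen. For the siSHISA2 array the cells had been transfected with an shRNA vector against SHISA2, and for the siCONTROL array with a control shRNA vector. The vectors are called shRNA after the design text, while the si of the group names more often denotes synthetic small interfering RNA. The comparison asks which transcripts differ after SHISA2 knockdown. Both groups share the cell line and consist of 1 vector and 1 array each, and culture, selection and harvest time are not given in the sources used here. Without replicates no difference could be set against variation between cultures, so no p-value, SD or n accompanies a value. The genes were chosen by family name and on these arrays' siSHISA2 over siCONTROL ratios, in particular the opposite directions of IGFBP4 and IGFBP6, so the ratios are given as a description.

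Insulin-like growth factors (IGFs) are secreted hormones that signal through IGF1R, a receptor tyrosine kinase, to insulin receptor substrates, PI3K and AKT. IGFBP1 to IGFBP6 bind IGFs with high affinity and hold them away from the receptor or carry them to it, and proteases release the growth factor by cutting the binding protein. IGFBP7 binds IGFs only weakly, and IGF2R has no kinase and removes IGF-II from the cell surface. Prostate epithelium and stroma are known to secrete several of these proteins, and IGF signalling is known to favour survival and growth of prostate cancer cells.

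Because IGFBP4 and IGFBP6 were the members at least 2-fold apart between the arrays, the reference sequence upstream of both genes is shown (RefSeq, GRCh38.p14). Each line gives the 250 bases before the annotated start, 5′ to 3′ on the plus strand, at chr17:40443200-40443449 for IGFBP4 and chr12:53097417-53097666 for IGFBP6. Capitals mark matches on either strand to the Sp1-type box spelled GGGCGG, and matches to the promoter element spelled TATAAA, which TATA-binding protein recognises.
IGFBP4: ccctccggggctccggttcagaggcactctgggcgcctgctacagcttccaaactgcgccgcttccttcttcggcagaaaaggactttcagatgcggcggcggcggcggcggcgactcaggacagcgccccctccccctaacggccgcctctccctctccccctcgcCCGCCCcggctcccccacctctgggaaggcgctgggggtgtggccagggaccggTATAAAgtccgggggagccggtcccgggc
IGFBP6: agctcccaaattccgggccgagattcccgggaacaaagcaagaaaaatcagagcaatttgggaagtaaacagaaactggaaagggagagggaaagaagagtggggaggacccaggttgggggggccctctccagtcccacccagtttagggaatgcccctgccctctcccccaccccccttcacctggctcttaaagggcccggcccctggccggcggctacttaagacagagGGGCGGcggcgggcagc

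The IGFBP4 window held TATAAA with its first base 29 bases before the start and 1 match to GGGCGG, 83 bases before it. The IGFBP6 window held 1 match to GGGCGG, 17 bases before the start, and 0 matches to TATAAA. No matches overlapped in these windows. Over all 35116 windows of this length in the table, 42.6% held the first motif and 10.7% held TATAAA. Guanine and cytosine made up 71.6% of the IGFBP4 window and 61.2% of the IGFBP6 window, against a median of 58% over all windows. These matches are letters in a window and were not set against binding data.

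The target itself came first as a check of the labels. SHISA2, read by 1 probe set, had a signal of 1506 in the siSHISA2 array against 3536 in the siCONTROL array, or 42.6% of it. Both arrays had the same mean signal of 500.1 after 2% of probe sets were trimmed at each end. A signal is the MAS5 intensity of a probe set on a linear scale, and signals under a floor of 47.9, the median of all non-control signals, were treated as unmeasured and raised to the floor. Each gene is given by its brightest measured probe set (by mean log2 signal), and 12931 genes were measured. Signals above 387.3, the 75th percentile, are called bright, and 7650 genes were bright in both arrays. The scatter between the brightest pair of probe sets within a gene served as a technical yardstick: the SD of their log2 ratio difference over the square root of 2 was 0.286, and 0.155 when 387.3 was the floor. It leaves out variation between cultures and arrays. The 0.155 is called the bright yardstick. Both values take in probe sets that passed the floor in a single array, and raising the other signal to the floor draws such ratios toward 0. Beyond the choice of the brightest probe set and the cuts at the floor and the 75th percentile, signals were not ranked between genes. Each probe set has its own response.

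Of the 9 genes, 8 were measured, on 14 of their 24 probe sets, and IGFBP1 was not. Only IGFBP6 was at least 2-fold higher in the siSHISA2 array and only IGFBP4 was lower by that much, while 0.920% and 0.565% of all measured genes passed these thresholds in the same directions. Among genes bright in both arrays the shares were 0.0654% and 0.0523%. These ratios chose the members, so nothing is read from the shares. No other member reached 1.5-fold on the probe set that represents it, with IGFBP2 and IGFBP5 taken at their bounds. The plot of signals shows the 2 arrays side by side for all 24 probe sets.

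**Figure D1:**
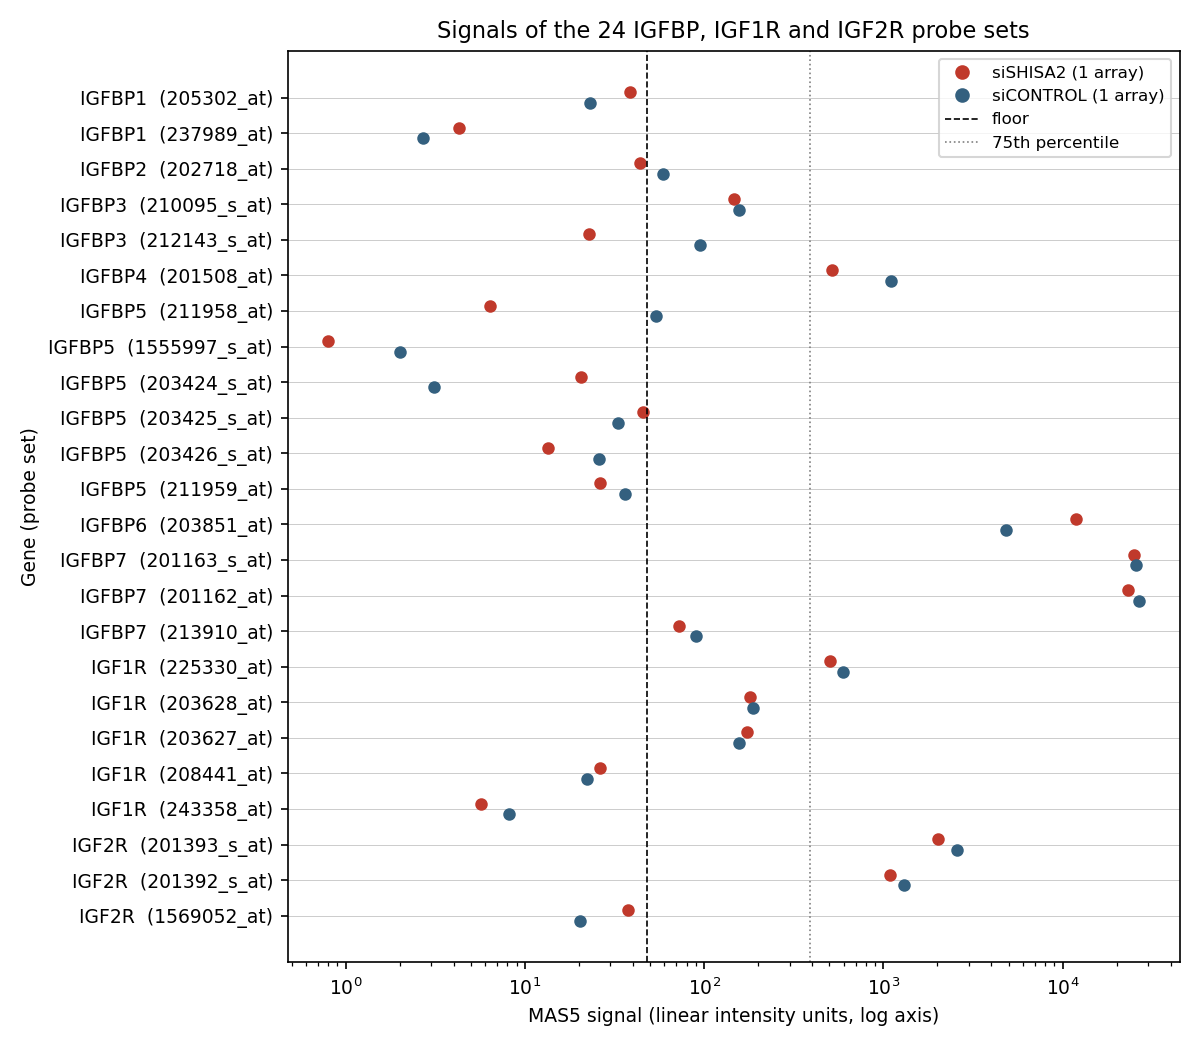
Each row is a probe set, the horizontal log axis gives its MAS5 signal in linear intensity units, and the points are the siSHISA2 array (red) and the siCONTROL array (blue). Dashed and dotted lines mark the floor of 47.9 and the 75th percentile of 387.3. IGFBP6 lies to the right and IGFBP4 to the left in the siSHISA2 array, both with bright signals, while both IGFBP1 probe sets and 5 of the 6 IGFBP5 probe sets lie under the floor in both arrays.

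IGFBP6, which binds IGF-II with much higher affinity than IGF-I and restrains it, had the highest ratio of all members. Its only probe set, 203851_at, read 11925 in the siSHISA2 array against 4848 in the siCONTROL array, a 2.46-fold higher signal (log2 ratio 1.30). Of the 7650 genes bright in both arrays none had a higher ratio, and of all 12931 measured genes 38 had one, none of them bright in both arrays. The ratio was 8.40 times the bright yardstick of 0.155 in size. The probe set is of the kind designed for a single gene, but with 1 probe set there was no second reading of IGFBP6 to compare it with.

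IGFBP4, which mainly inhibits IGF action and is the known substrate of the protease PAPP-A, lay on the other side. Its only probe set, 201508_at, read 519.7 in the siSHISA2 array against 1105 in the siCONTROL array, which is 47.0% of the control signal (2.13-fold lower, log2 ratio -1.09). Of the genes bright in both arrays 2 had a lower ratio, and of all measured genes 53 did. The size was 7.05 times the bright yardstick. IGFBP4 too has a single probe set, of the kind designed for a single gene.

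By nearness of the log2 ratio over these 2 arrays alone, the genes bright in both arrays most like IGFBP4 were NPNT (-1.03), ERMP1 (-1.15) and IRX3 (-0.99). Those nearest to IGFBP6 were AEN (1.13), CXCL11 (1.07) and CDKN2B (1.01), all with lower ratios than IGFBP6. With 2 arrays, likeness says only that the ratios are close in size.

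**Figure D2:**
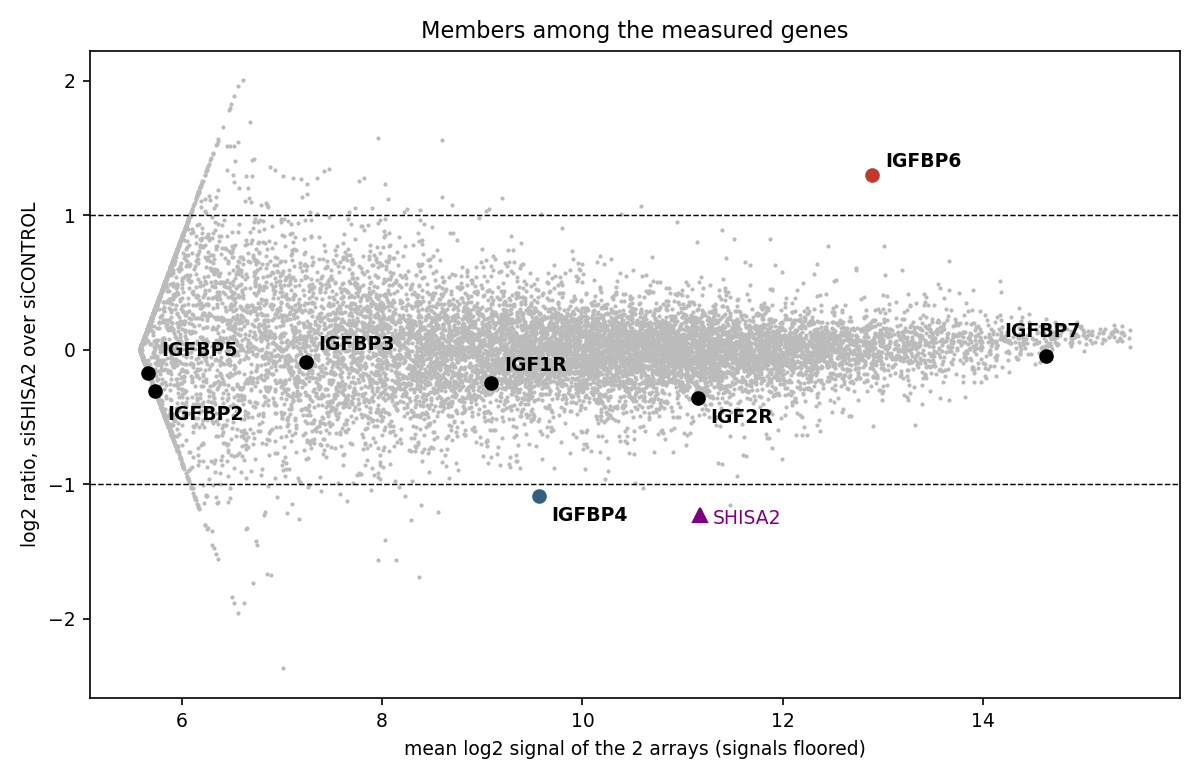
Each grey point is 1 of the 12931 measured genes, with the mean log2 signal of both arrays on the horizontal axis and the log2 ratio of siSHISA2 over siCONTROL on the vertical axis. Points on the slanted edges at the left have 1 signal at the floor. IGFBP6 (1.30) lies above all other genes that are bright in both arrays, IGFBP4 (-1.09) is close to SHISA2 (-1.23), and the other 6 measured members lie between -0.36 and -0.04.

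The remaining binding proteins gave small or unreliable differences. IGFBP7, also known as angiomodulin, was read by 3 probe sets. Its representative, 201163_s_at, had a signal of 24838 in the siSHISA2 array against 25606 in the siCONTROL array (log2 ratio -0.04). The gene-specific probe set 201162_at read 23159 against 26717 (-0.21), and 213910_at read 72.5 against 90.6 (-0.32). All 3 were lower in the siSHISA2 array, and the ratios of the bright pair were 0.284 and 1.33 times the bright yardstick in size.

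IGFBP3, the main carrier of IGFs in blood, was dim and its probe sets disagreed in size. On 210095_s_at it read 146.2 in the siSHISA2 array against 155.8 in the siCONTROL array (-0.09). On 212143_s_at it read 22.9 against 95.3, and since the siSHISA2 signal lay under the floor this is given as at least 1.99-fold lower, just short of the 2-fold threshold. Both probe sets are of the kind that can share probes with other transcripts.

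IGFBP2 and IGFBP5 were near the floor. IGFBP2, which is often raised in prostate tumours, read 44 in the siSHISA2 array, under the floor, against 59.3 in the siCONTROL array, at least 1.24-fold lower. IGFBP5, a matrix-bound binding protein abundant in bone, passed the floor on 1 of 6 probe sets, 211958_at, at 6.4 against 53.9 (at least 1.13-fold lower). Its other 5 probe sets read 0.8 to 45.4 in the siSHISA2 array and 2 to 36.2 in the siCONTROL array, with 2 higher and 3 lower in the siSHISA2 array. IGFBP2, IGFBP5 and the dimmer IGFBP3 probe set passed the floor only through the siCONTROL array and so had to come out lower.

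IGFBP1, the liver-derived binding protein that insulin represses, was under the floor on both probe sets. They read 38.6 and 4.3 in the siSHISA2 array against 23 and 2.7 in the siCONTROL array. Signals this close to background carry no order.

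IGF2R was slightly lower on both of its measured probe sets, and IGF1R had no common direction. IGF2R, which takes IGF-II and lysosomal enzymes tagged with mannose 6-phosphate into the cell, read 2009.5 in the siSHISA2 array against 2576 in the siCONTROL array on 201393_s_at (log2 ratio -0.36). On 201392_s_at it read 1095 against 1297 (-0.24). The sizes were 2.32 and 1.58 times the bright yardstick, and 409 of the 7650 bright genes had a lower ratio than IGF2R. Its remaining probe set was under the floor in both arrays, at 37.7 against 20.3.

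IGF1R, the signalling receptor, had 3 measured probe sets that did not share a direction. The representative 225330_at read 500.5 in the siSHISA2 array against 594.2 in the siCONTROL array (-0.25), 1.60 times the bright yardstick. The dimmer 203628_at read 179.1 against 186.6 (-0.06) and 203627_at 174.3 against 156.9 (0.15). The other 2 probe sets read 26.1 and 5.7 against 22.1 and 8.2, under the floor. Averaged over its measured probe sets, the IGF1R ratio was -0.05.

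**Figure D3:**
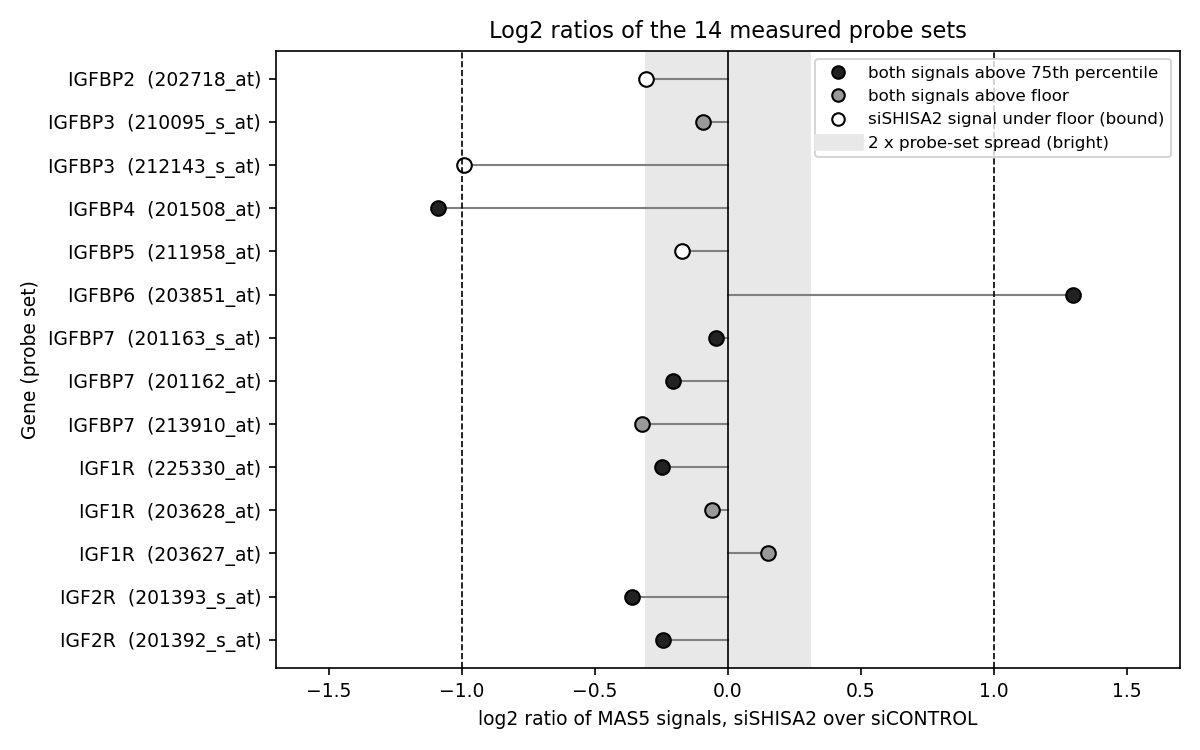
Each row is 1 of the 14 measured probe sets and the horizontal axis its log2 ratio of siSHISA2 over siCONTROL. Open circles are bounds because the siSHISA2 signal was under the floor, dashed lines mark 2-fold, and the grey band is 2 times the bright yardstick of 0.155. IGFBP4 and IGFBP6 lie beyond 2-fold in opposite directions, and 9 of the 11 filled points are below 0.

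Of the 6 members with both signals above the floor, IGFBP6 had a log2 ratio above 0 and the other 5 had one below 0, where 48.9% of all such genes were below 0. Of the 5 members bright in both arrays 4 were below 0, against 49.8%. Among member probe sets with both signals above the floor 9 of 11 were below 0, against 47.8% of all such probe sets, the exceptions being IGFBP6 and 203627_at of IGF1R. IGFBP2 and IGFBP5 are left out of these counts because the floor fixed their direction, and IGFBP5 stood at 0.46 with the floor at the 25th percentile. Since the ratios chose the members, and probe sets of a gene are not independent readings, nothing is read from these counts.

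The rest of the IGF pathway was followed through 8 lists of 61 genes, 48 of them measured. Of these 26 had a log2 ratio above 0 (52.2% of all measured genes did), and the median was 0.02. The 26 include IGF1, PAPPA2, KLK2, ADAM28, CCN3 and IRS4. These passed the floor only through the siSHISA2 array and so had to come out above 0, also in the list counts below. Nothing is therefore read from the count of 26. At 2-fold 0 genes passed upward and 1 downward, beside 0.920% and 0.565% of all measured genes. With both signals bright, 13 of 30 were above 0, against 50.2% of all such genes.

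**Figure D4:**
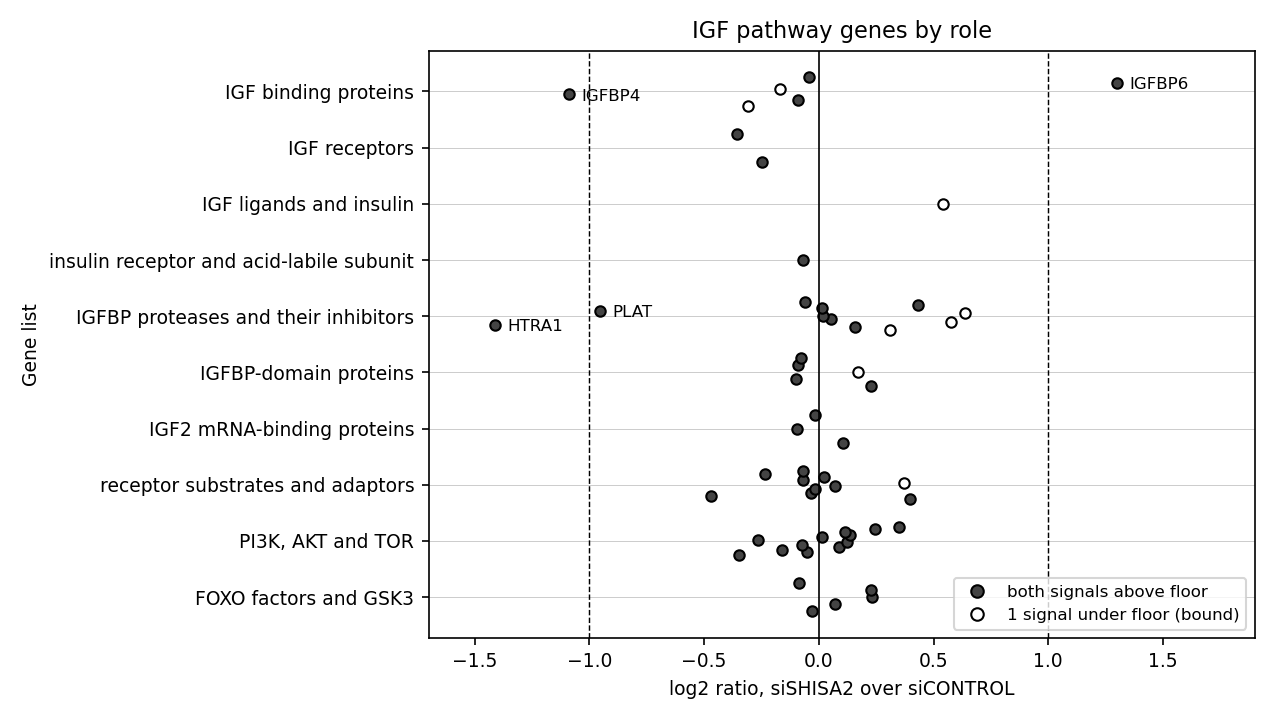
Each point is a measured gene, placed by its list (rows) and its log2 ratio of siSHISA2 over siCONTROL, with open points where 1 signal was under the floor. Dashed lines mark 2-fold. IGFBP4, IGFBP6 and HTRA1 lie beyond the 2-fold lines, and the receptor substrates, the PI3K and TOR genes and the FOXO genes lie between -0.47 and 0.40.

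Of the proteases that cut binding proteins and the inhibitors of those proteases, 11 of 12 genes were measured. Of these 8 were above and 3 below 0, with a median of 0.05, where 52.2% of all measured genes were above 0. PAPPA2, KLK2 and ADAM28 are among the 8 and passed the floor only through the siSHISA2 array. The floor fixed their direction, so no lean of the list is read from this count. HTRA1, a secreted serine protease that itself carries an IGF-binding-protein domain and cuts IGFBP5, read 160.6 in the siSHISA2 array against 426.9 in the siCONTROL array (2.66-fold lower, log2 ratio -1.41). HTRA1 has a single probe set, and its siSHISA2 signal was not bright. PLAT, tissue plasminogen activator, read 71.9 against 139.2 (-0.95), neither of them bright. Its single probe set can share probes with other transcripts. PAPPA2, a protease of IGFBP3 and IGFBP5, and the kallikrein KLK2 were at least 1.56-fold and 1.49-fold higher, each with a siCONTROL signal under the floor. PAPPA2 passed the floor on 2 of 4 probe sets, and the one given can share probes with other transcripts. KLK2 passed it on 1 of 4.

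The protease that acts on IGFBP4 and its inhibitors were named after their values were seen. PAPPA, which encodes PAPP-A, had 2 of 11 probe sets measured. It read 81.8 in the siSHISA2 array against 80.8 in the siCONTROL array (0.02) on 228128_x_at. On 224940_s_at it read 92.9 against 30.2, at least 1.94-fold higher, with the siCONTROL signal under the floor. Both probe sets are of the kind that can share probes with other transcripts, and all other PAPPA probe sets were under the floor in both arrays. The stanniocalcins block PAPP-A. STC1 was higher on its 3 probe sets, at 3186 against 2359 (0.43), 1242 against 988.1 (0.33) and 176.2 against 94.1 (0.90), while STC2 read 3032 against 3165 (-0.06) and 1584 against 1561 (0.02).

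Of the growth factors, IGF2 had no probe set of its own under the rule used and was not analysed here. IGF1 was measured on 2 of 5 probe sets, both with siCONTROL signals under the floor, at 69.8 against 24.4 (at least 1.46-fold higher) and 55.3 against 9.3 (at least 1.15-fold higher), and both probe sets can share probes with other transcripts. Insulin and the acid-labile subunit of the circulating IGF complex (IGFALS) were under the floor, and so was the insulin receptor-related receptor INSRR. INSR, the insulin receptor, had log2 ratios of -0.07 on its brightest probe set, and between -0.61 and 0.21 on the other 3 measured ones.

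Other proteins with an IGF-binding-protein domain differed little, with 2 above and 3 below 0. CCN1, a matricellular protein, read 0.23, CCN2, connective tissue growth factor, -0.10 and CRIM1, a membrane protein that binds bone morphogenetic proteins, -0.09, and CCN3 was at least 1.13-fold higher, starting from a siCONTROL signal below the floor. The mRNA-binding proteins of the IGF2BP family, which bind the IGF2 transcript, had log2 ratios of 0.10 for IGF2BP1, -0.09 for IGF2BP2 and -0.02 for IGF2BP3.

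Inside the cell, 4 receptor substrates and adaptors were above and 6 below 0, with a median of -0.03. GRB10, an adaptor that inhibits the insulin and IGF1 receptors, was higher on all 4 of its probe sets, with log2 ratios of 0.40 at 5937 in the siSHISA2 array against 4511 in the siCONTROL array, and between 0.25 and 0.63 on the others. Its relative GRB14 read 286.2 against 396.2 (-0.47). The Ras exchange factor SOS1 read -0.23, with 0.09 to 0.36 on its other probe sets, and the substrate IRS4, at 61.9 against 27.6, at least 1.29-fold higher.

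In the PI3K, AKT and TOR list 7 of 12 measured genes were above 0, with a median of 0.05. TSC2 (0.35) and TSC1 (0.24), the complex that restrains TOR, were above 0, and the kinase AKT1 (-0.35) and the PI3K regulatory subunit PIK3R3 (-0.27) below. In the FOXO and GSK3 list 3 of 5 were above 0. FOXO4 read 0.23, GSK3A 0.23, and at least 2.50-fold higher on a probe set with its siCONTROL signal under the floor, GSK3B -0.09 and FOXO3 0.07.

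Markers were read to check the labelled line. Of 5 epithelial and intermediate filament markers 4 were measured, among them KRT18 (17533 in the siSHISA2 array against 18339.7 in the siCONTROL array) and KRT8 (1989.6 against 2283), and KRT19 was under the floor. KLK3, prostate-specific antigen, which PC-3 is known to lack, was under the floor on 2 of 3 probe sets and read 251 against 242.3 on 231629_x_at, which can share probes with other transcripts. Of the fibroblast markers 2 of 6 were measured (summed signal of measured genes 630.3 against 823.1), of the endothelial markers 2 of 5 (383.2 against 260.5) and of the leukocyte markers 2 of 5 (221.9 against 139.7). The measured fibroblast markers were COL1A1 (577 in the siSHISA2 array against 787.2 in the siCONTROL array) and DCN (53.3 against 35.9). The endothelial ones were CDH5 (261.5 against 155.9) and PECAM1 (121.7 against 104.6). Those of leukocytes were CD79A (164.6 against 109.1) and CD3E (57.3 against 30.6). LUM, COL1A2, COL3A1, PDGFRB, VWF, KDR, TEK, PTPRC, CD14 and LYZ were under the floor in both arrays. The part of other cells in the ratios was not tested, and in bulk RNA fewer cells of a kind and less RNA per cell cannot be told apart.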

How the data were processed

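The authors deposited probe-set intensities made with MAS5, per the submitters' processing notes (version not given in the sources used here), from biotin-labelled complementary RNA prepared from 250 ng total RNA, per the labels' protocols. From these intensities log2 ratios of siSHISA2 over siCONTROL were computed (Python 3.11.15, pandas 2.3.3, statsmodels 0.14.6), without further scaling. Of 54675 probe sets 62 were controls, 41097 had 1 gene symbol, 1801 several and 11777 were not listed. No probe set paired a member with another gene. Promoter windows matched 7 of the 9 members by symbol.

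With 1 array per group there are no residual degrees of freedom, so 2-fold is used as a size and nothing was tested. The procedure, run on a simulated pair of 12493 genes, recovered 200 of 200 genes changed 4-fold. Those genes had mean signals above 387.3, and 4-fold is well above the 2-fold threshold, so their recovery was nearly fixed in advance. It does not show how well changes close to 2-fold, such as those of IGFBP4 and IGFBP6, are recovered. The members and lists were chosen with earlier results of these data known. The naming rule covered all members, SHISA2, up to 4 genes per list with the largest ratios, and any at least 2-fold apart. It also covered the 3 bright genes nearest in ratio to IGFBP4 and IGFBP6. PAPPA, STC1 and STC2 were named outside this rule, after their values were seen. Markers and some list genes without a measured probe set were named too. Alternatives were other scalings (median centring, quantile, loess of span 0.3), floors, a pseudocount of 1, averaged or gene-specific probe sets, and thresholds of 1.5-fold and 3-fold.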

Additional observations from a re-analysis of the deposited data

How the results depend on the processing

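IGFBP6 and IGFBP4 kept their direction and stayed at least 2-fold apart under the 8 alternatives of scaling, floor and probe-set choice. Their log2 ratios ran from 1.27 to 1.30 and from -1.11 to -1.07. Each has a single gene-specific probe set that is bright in both arrays. The other floors, the averaging and the gene-specific choice therefore could not move these ratios. Only the scalings and the pseudocount could, so most of the 8 say nothing about how stable the ratios are. At a 3-fold threshold 0 members were higher and 0 lower, beside 0.0619% and 0.0696% of all measured genes. At 1.5-fold the counts stayed at 1 and 1, beside 5.02% and 3.77% of all measured genes. With the floor at the 75th percentile, 14 of 33 measured pathway genes were above 0, beside 49.9% of all measured genes. Median centring, quantile and loess scaling gave 22, 23 and 22 of 48, beside 48.4%, 50.2% and 50.2%. Averaging gave 26 of 48 (53.6%) and the gene-specific choice 19 of 36 (51.4%). The 25th percentile floor gave 28 of 53 and the pseudocount 30 of 56, beside 52.4% in each case. The side of 0 on which most pathway genes fell therefore depended on the processing. IGFBP5 stood at 0.46 with the floor at the 25th percentile (11.3) and at 0.44 with no floor, where another probe set represented it, and IGFBP3 at -0.54 when its probe sets were averaged. IGF1R ranged from -0.27 to -0.05, IGF2R from -0.38 to -0.30, IGFBP2 from -0.43 to -0.31 and IGFBP7 from -0.21 to -0.04. IGF2R and IGFBP3 could not be computed without probe sets that can share probes, nor IGFBP2, IGFBP3 and IGFBP5 with the floor at the 75th percentile. No paired analysis was possible because each group has 1 array. Signal over background limits IGFBP1, IGFBP2, IGFBP3 and IGFBP5, and the number of arrays limits every value.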
